A study of Mus musculus with 15 samples.

Results

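Interferon-stimulated genes were followed in mRNA sequencing of primary mouse hepatocytes, as 34 genes named by symbol out of 56953 genes in the deposited tables. They were picked for what their products do, and no measured value entered the choice of a gene for the list, although the list was drawn up with earlier results of these data known. All 34 were matched by Ensembl gene identifier, all 34 had reads in each of the 15 libraries, and all 34 passed the filter on low counts that kept 17975 genes for testing. The hepatocytes came from wild-type (WT) mice and from mice carrying the transgene ΔEGFR, and each genotype had received mineral oil or carbon tetrachloride (CCl4), a liver toxin used to produce fibrosis. There were 4 libraries of WT with mineral oil, 3 of WT with CCl4, 4 of ΔEGFR with mineral oil and 4 of ΔEGFR with CCl4. The dose, the length of treatment, the age, sex and strain of the mice, and the promoter that drives the transgene are not given in the sources used here. Nor do they state whether each library came from its own mouse, so the p-values measure only the spread between these libraries. The labels number no replicates: the numbers used here name the libraries of a group in their deposited order and pair none of them.

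Type I interferons (the IFN-α family and IFN-β) bind the receptor IFNAR1/IFNAR2, whose kinases JAK1 and TYK2 phosphorylate STAT2. STAT2 and IRF9 are parts of the complex ISGF3, which binds the interferon-stimulated response element (ISRE) in the promoters of its target genes. Interferon-γ acts through another receptor and through the gamma-activated site (GAS). The induced genes sense viral RNA, degrade or sequester it, block entry and budding, modify proteins with ISG15, and feed back on the signal. Hepatocytes carry both receptors, and Kupffer cells and other leukocytes of the liver express many of the same genes.

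The promoters of these genes were searched for both motifs. The RefSeq promoter table (mouse build GRCm38.p6) held 27 promoters for 24 of the 34 genes, each from 250 bases before to 50 bases after a transcription start. The ISRE was searched as GAAANNGAAA or its reverse complement TTTCNNTTTC, and the GAS as TTCNNNGAA, which reads the same on both strands; overlapping matches were counted. An ISRE lay in 13 of the 24 genes, a share of 13 of 27 promoters, against 3.44% of all 32851 promoters of the same length in the table. A GAS lay in 5 of the 24, against 8.3% of all promoters. Both motifs were found in 3 genes and neither in 9. Each of the 5 genes that passed the test for CCl4 below and had an entry, Oas1a, Ifih1, Stat2, Igtp and Irgm1, held an ISRE in the window. In Ifih1 it began 32 bases after the start. The other 4 are printed because they are the called genes with an upstream match, and Isg15 is added because its 3 overlapping matches are the longest run. Each sequence is the 250 bases before the start, 5′ to 3′ in the direction of the gene, and the capitals mark the ISRE.
Oas1a (chr5:120907526-120907775, minus strand): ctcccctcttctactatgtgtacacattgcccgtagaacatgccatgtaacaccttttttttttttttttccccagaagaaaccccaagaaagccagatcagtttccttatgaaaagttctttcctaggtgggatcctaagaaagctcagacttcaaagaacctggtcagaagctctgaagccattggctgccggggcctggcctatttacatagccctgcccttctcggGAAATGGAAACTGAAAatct
Isg15 (chr4:156200819-156201068, minus strand): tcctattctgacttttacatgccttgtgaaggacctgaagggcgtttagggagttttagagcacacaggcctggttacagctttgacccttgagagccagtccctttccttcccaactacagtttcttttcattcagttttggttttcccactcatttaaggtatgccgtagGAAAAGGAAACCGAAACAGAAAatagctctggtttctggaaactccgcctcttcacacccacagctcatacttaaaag
Stat2 (chr10:128270248-128270497, plus strand): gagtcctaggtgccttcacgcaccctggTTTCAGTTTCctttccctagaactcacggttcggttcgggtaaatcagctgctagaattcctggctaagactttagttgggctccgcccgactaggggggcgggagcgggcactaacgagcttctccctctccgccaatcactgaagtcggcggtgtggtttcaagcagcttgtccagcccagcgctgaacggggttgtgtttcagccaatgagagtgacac
Igtp (chr11:58199306-58199555, plus strand): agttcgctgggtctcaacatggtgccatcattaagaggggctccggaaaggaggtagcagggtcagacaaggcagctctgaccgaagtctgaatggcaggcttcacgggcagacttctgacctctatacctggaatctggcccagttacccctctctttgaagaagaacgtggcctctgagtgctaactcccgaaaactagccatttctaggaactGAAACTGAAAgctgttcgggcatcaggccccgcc
Irgm1 (chr11:48871421-48871670, minus strand): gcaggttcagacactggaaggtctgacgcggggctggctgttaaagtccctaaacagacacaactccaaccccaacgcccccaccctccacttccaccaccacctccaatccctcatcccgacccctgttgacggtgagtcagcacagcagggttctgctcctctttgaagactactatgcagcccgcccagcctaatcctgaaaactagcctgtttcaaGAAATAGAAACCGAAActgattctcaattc
The match began 20 bases before the start in Oas1a, 78 in Isg15, 34 in Igtp and 30 in Irgm1. In Stat2 it lay on the opposite strand, 222 bases before the start. The bases after each start were looked for near the beginning of the gene's GENCODE transcripts. They were found for Isg15, Igtp and Irgm1 but not for Oas1a and Stat2, so the distances in Oas1a and Stat2 are less certain. Igtp and Oas1a also held a GAS within the 300 bases.

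Levels between genes can be compared per length, in TPM, the share of transcripts scaled by length and by the library total. By the median over the 15 libraries, Bst2, which tethers budding virions to the cell, was highest at 244 TPM. It was followed by Ifi27, a small membrane protein of mitochondria, at 142 TPM. A middle band held Irf7 (33.6 TPM), Stat2 (30.5), Trim25 (30.2), Irgm1 (29.2), Ifi35 (26.3) and Igtp (24.9). Isg15, the ubiquitin-like protein that is often among the most induced of these genes, stood at 16.5 TPM. The lowest medians were those of Ifit1 (2.31 TPM), Ifit2 (1.98), Ifi44 (1.57) and Mx1 (0.98). Within the middle band neighbours did not differ beyond their spread: Irf7 ran from 21.2 to 66.0 TPM and Igtp from 11.7 to 76.8 TPM.

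All further levels are CPM, the count of a gene relative to the scaled library size, and differences are log2 fold changes with their standard error (SE) from edgeR's quasi-likelihood test. A gene was called when its Benjamini-Hochberg adjusted p over the 17975 genes was under 0.05. Library totals ran from 51732147 to 155388787 counts, and the lowest count of any of the 34 genes was 15, for Oas3. The 8 hepatocyte markers were detected in each library, and the median of their sum was 119218 CPM in WT mineral oil, 80940 in WT CCl4, 99246 in ΔEGFR mineral oil and 68926 in ΔEGFR CCl4. Markers of other cells were also present, and they differed between the groups. The monocyte and dendritic cell markers summed to 0.499 to 55.5 CPM in the 8 mineral oil libraries and to 51.7 to 183 CPM in the 7 with CCl4. The 12 macrophage markers summed to 107 to 2248 CPM in WT mineral oil, 2184 to 5789 in WT CCl4, 44.5 to 1274 in ΔEGFR mineral oil and 2444 to 5346 in ΔEGFR CCl4, and all 12 were detected in each library. The part of these shifts in the changes with CCl4 was not tested. In such bulk libraries, fewer cells of a type and less RNA per cell cannot be told apart. WT mineral oil replicate 1 stood apart: its 6 neutrophil markers summed to 1999 CPM against 2.03 to 149 CPM in the other 7 mineral oil libraries, and its 8 T and NK cell markers to 107 CPM against 0.379 to 10.7 CPM. Its plasmacytoid dendritic cell markers summed to 12.6 CPM against 0.112 to 4.13 CPM, and its B cell markers to 31.2 against 0.117 to 5.24 CPM. The endothelial sum was 618 CPM against 51.8 to 268 CPM, and the cholangiocyte sum 188 against 6.48 to 25.6 CPM. This library was not the highest for stellate cell markers. It held the highest value among the 8 mineral oil libraries for 26 of the 34 genes, whereas it did so for 28.3% of all tested genes. Where leaving it out changes which of the 34 genes are called, that is therefore also given.

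**Figure D1:**
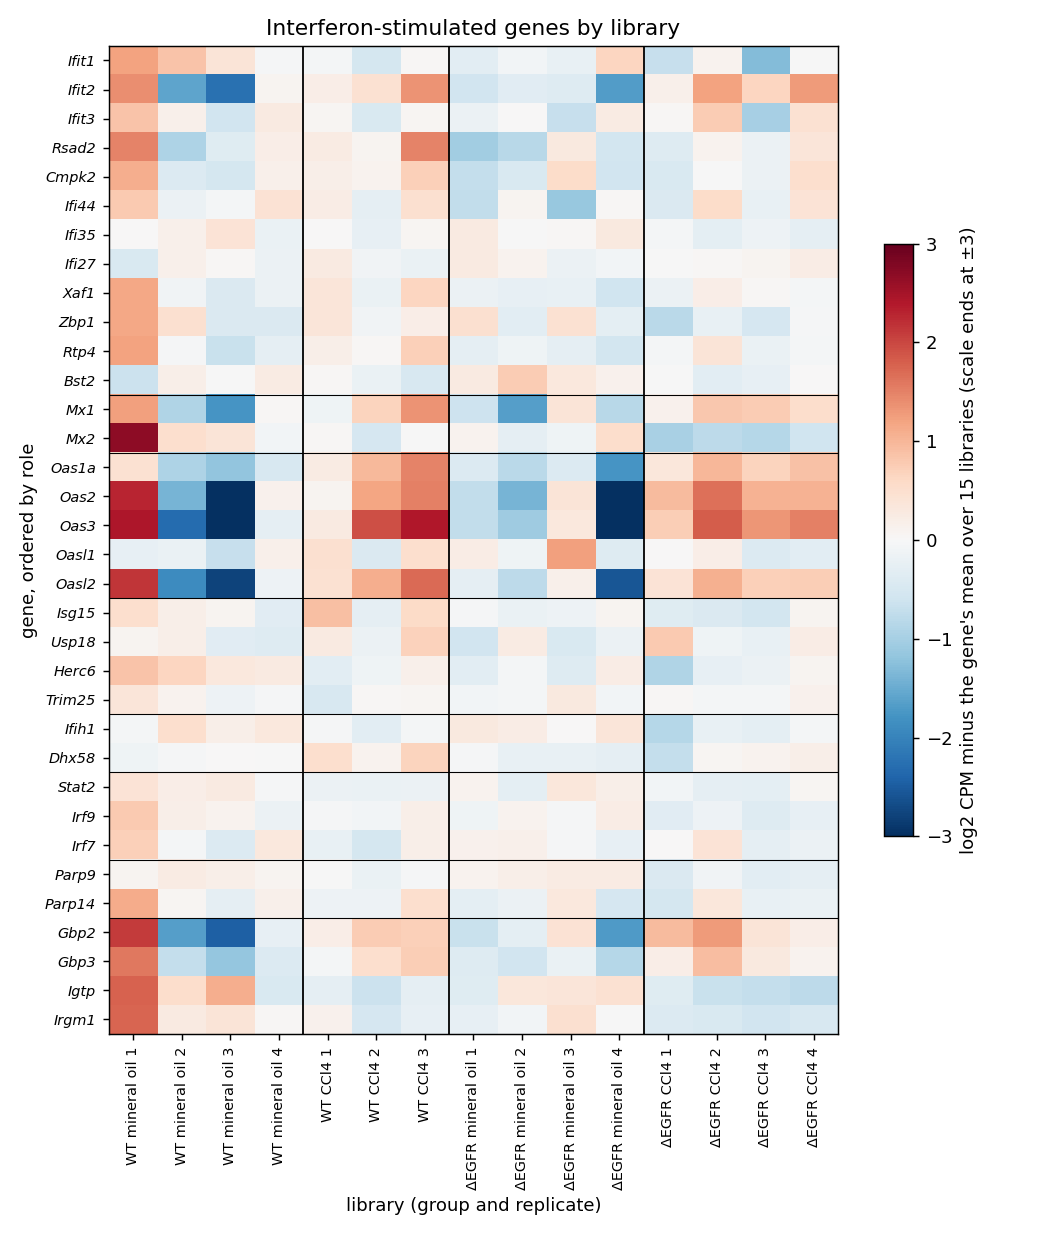
Each row is one of the 34 genes, grouped by role between horizontal lines, and each column is 1 of the 15 libraries, grouped by genotype and treatment. Colour gives log2 CPM minus the gene's mean over the 15 libraries, and WT mineral oil replicate 1 holds the highest mineral oil value for 26 of 34 genes.

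The comparison of CCl4 with mineral oil asks what the toxin does to these genes in each genotype. Oas1a rose, and Igtp, Irgm1, Mx2, Ifih1, Stat2 and Parp9 fell, when the effect was averaged over both genotypes. That is 7 of 34 genes, 1 higher and 6 lower, against 27.1% of all tested genes called (12% higher and 15.1% lower). Within WT 2 of 34 were called, Oas1a higher and Igtp lower, against 12.5% of all tested genes (5.31% higher and 7.2% lower). Within ΔEGFR 1 of 34 was called, Parp9 lower, against 4.15% (1.77% higher and 2.38% lower). Over both directions, none of the 3 shares is above its background. The lower calls alone were 17.6% of the list against 15.1% on average and 2.94% against 2.38% in ΔEGFR. The median log2 fold change of the 34 genes was 0.02 on average over genotypes, against -0.02 for all tested genes. It was -0.03 in WT, where all tested genes also had -0.03, and 0.03 in ΔEGFR, against -0.02.

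The list thus did not move as one. On average over genotypes, 17 genes had a positive and 17 a negative log2 fold change, against 48.6% and 51.4% of all tested genes. In WT, 17 were positive and 17 negative (background 48.1% and 51.9%), from -1.49 to 1.38. In ΔEGFR, 19 were positive and 15 negative (background 48.7% and 51.3%), from -0.88 to 2.15. The sign was the same in both genotypes for 28 of 34 genes (15 positive and 13 negative), against 76.4% of all tested genes. The groups of a genotype did not overlap for 4 of 34 genes in WT, against 24.1% of all tested genes (12.1% higher and 11.9% lower): Dhx58 lay higher with CCl4, and Stat2, Parp9 and Herc6 lower. In ΔEGFR the groups did not overlap for 14 of 34, against 21.6% (12.3% higher and 9.32% lower). Of these, Ifit2, Oas1a, Oas2, Oas3, Oasl2 and Gbp3 lay higher and Ifi35, Bst2, Mx2, Ifih1, Irf9, Parp9, Igtp and Irgm1 lower.

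**Figure D2:**
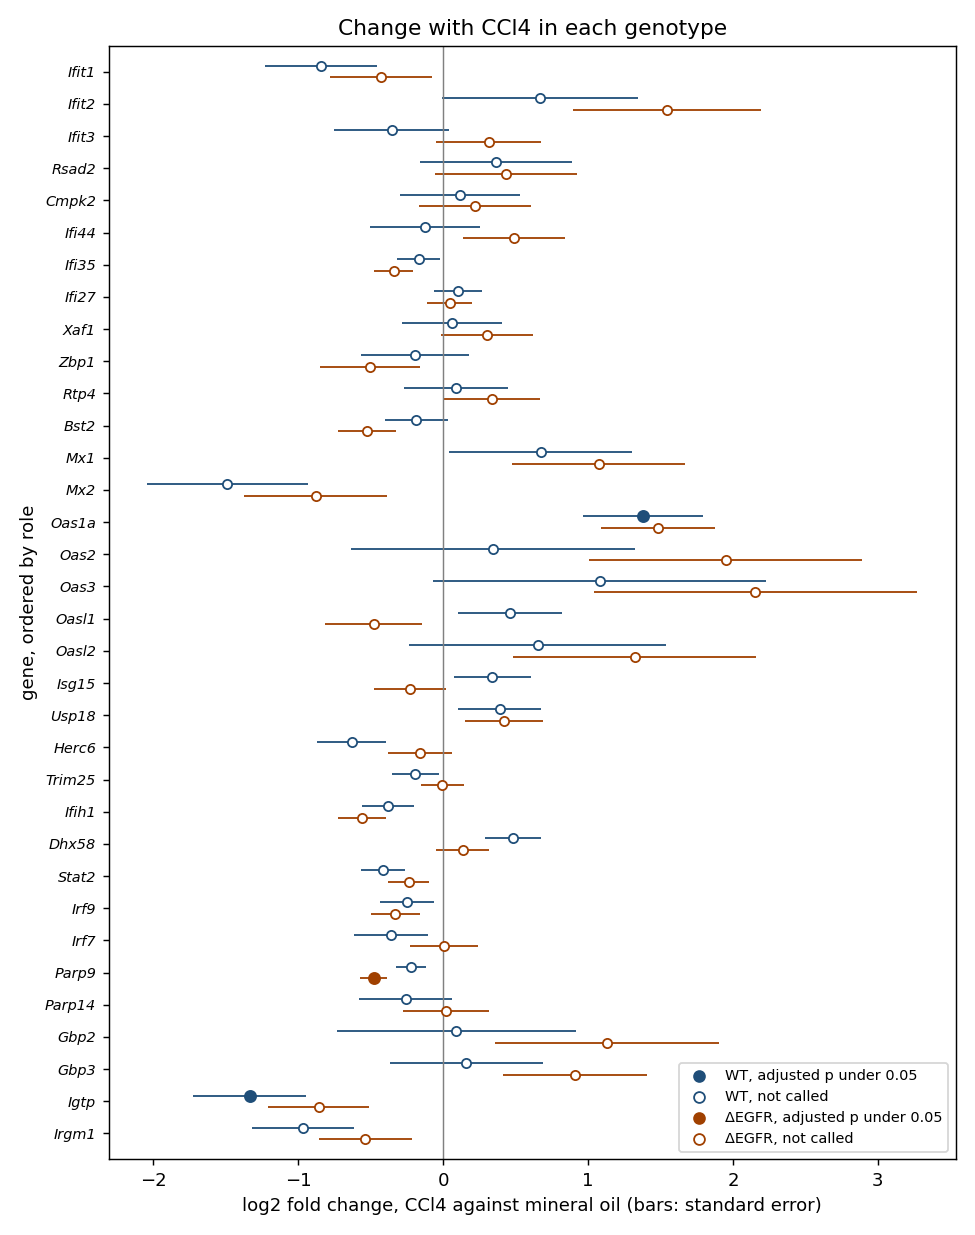
Points give the log2 fold change of CCl4 against mineral oil for each of the 34 genes in WT (blue) and ΔEGFR (brown), with the standard error as bars. Filled points passed an adjusted p of 0.05: Oas1a and Igtp in WT and Parp9 in ΔEGFR.

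These counts changed with the scaling and with 1 library. The scaling factors of the trimmed mean of M-values (TMM) ran from 0.745 to 1.03 in mineral oil libraries and from 1.03 to 1.35 in CCl4 libraries. Without them the median of all tested genes moved to 0.43 in the averaged comparison, and the test on log2(TPM + 1) moved it to 0.41. Stat2 and Parp9 then changed sign. Oas1a, Mx2, Ifih1, Igtp and Irgm1 kept theirs under both, and only Oas1a among the 7 kept its call. Without WT mineral oil replicate 1, the averaged comparison called 17 of 34 genes, 10 higher and 7 lower, against 43.9% of all tested genes in that fit. All 7 genes above were among the 17. Within WT 7 were then called (6 higher and 1 lower, background 28.7%): Oas1a, Oas3, Oasl2, Ifit2, Gbp2 and Gbp3 higher and Igtp lower. Within ΔEGFR 6 were called (2 higher and 4 lower, background 12.1%): Oas1a and Gbp3 higher and Parp9, Mx2, Ifih1 and Bst2 lower.

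The OAS family makes 2′-5′ oligoadenylate on double-stranded RNA, the messenger that switches on RNase L; Oasl1 and Oasl2 are its OAS-like members. Oas1a stood at 13.4, 5.14, 4.31 and 7.01 CPM in WT mineral oil and at 11.6, 19.2 and 27.6 CPM in WT CCl4. In ΔEGFR it stood at 7.39, 5.60, 7.45 and 2.9 CPM with mineral oil and at 12.4, 19.5, 15.5 and 17.9 CPM with CCl4. The ΔEGFR groups did not overlap, and in WT only mineral oil replicate 1 lay above the lowest CCl4 library. Oas1a rose by a log2 fold change of 1.43 (SE 0.28, adjusted p = 0.0033) on average and by 1.38 in WT (SE 0.41, adjusted p = 0.045). In ΔEGFR it had 1.48 (SE 0.39, adjusted p = 0.051). Without WT mineral oil replicate 1 the value was 1.83 in WT (adjusted p = 0.0072). It was then also called in ΔEGFR, at 1.48 (adjusted p = 0.020). The averaged call held in all 24 alternatives, with adjusted p from 4.1e-05 to 0.014. The WT call was lost without any 1 of 11 of the 15 libraries, which are WT mineral oil replicates 2, 3 and 4, WT CCl4 replicates 2 and 3, ΔEGFR mineral oil replicates 1 and 2 and all 4 of ΔEGFR CCl4; the adjusted p then reached 0.21. Reads of Oas1a may be shared with close copies in its gene cluster, so its value is uncertain to that extent.

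Oas3, Oas2 and Oasl2 had a different spread from Oas1a. Oas3 stood at 34.9, 1.32, 0.658 and 5.43 CPM in WT mineral oil, 7.81, 24.9 and 34.6 CPM in WT CCl4, 3.94, 3.10, 8.19 and 0.196 CPM in ΔEGFR mineral oil, and 11, 23.1, 16.3 and 18.5 CPM in ΔEGFR CCl4. Its highest mineral oil library was thus 178 times its lowest, and 41.9 times without WT mineral oil replicate 1. Oas2 differed 63.0-fold and Oasl2 30.05-fold between the same extremes. With that spread none was called: the averaged log2 fold changes were 1.62 for Oas3 (SE 0.80, adjusted p = 0.15), 1.15 for Oas2 (SE 0.67, adjusted p = 0.22) and 0.99 for Oasl2 (SE 0.61, adjusted p = 0.25). Without WT mineral oil replicate 1 they were called at 2.67 (adjusted p = 0.0081), 1.95 (adjusted p = 0.016) and 1.84 (adjusted p = 0.0065). Oasl1, which restrains translation of Irf7, ran from 9.64 to 36.4 CPM and had an averaged log2 fold change of -0.01.

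Mx1 and Mx2 are dynamin-like GTPases that trap viral nucleoproteins. Mx2 stood at 24.8, 5.47, 5.01 and 3.62 CPM in WT mineral oil, 3.91, 2.7 and 3.80 CPM in WT CCl4, 4.13, 3.16, 3.49 and 5.49 CPM in ΔEGFR mineral oil, and 1.96, 2.23, 2.12 and 2.53 CPM in ΔEGFR CCl4. The ΔEGFR groups did not overlap, and the WT groups did. Mx2 fell by 1.18 on the log2 scale on average (SE 0.37, adjusted p = 0.031), and by 0.66 without WT mineral oil replicate 1 (adjusted p = 0.0091). The call was lost without any 1 of the 3 WT CCl4 libraries, ΔEGFR mineral oil replicates 2 and 4, or any of the 4 ΔEGFR CCl4 libraries, with adjusted p up to 0.10. Mx1, the lowest of the 34 genes per length, ran from 0.359 to 3.13 CPM and was not called (averaged log2 fold change 0.87, SE 0.43, adjusted p = 0.15). It was called higher without WT mineral oil replicate 1, at 1.26 (adjusted p = 0.017). With all libraries, limma on log2(TPM + 1) also called Mx1 higher, at 0.69 (adjusted p = 0.0074). The pair of genes thus had opposite signs in these libraries, and their difference was not tested.

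Ifih1 encodes MDA5, the sensor of long double-stranded RNA, and Dhx58 encodes its regulator LGP2. Ifih1 stood at 36.4, 53.7, 42.5 and 47.4 CPM in WT mineral oil, 36.7, 30.6 and 36.6 CPM in WT CCl4, 46.1, 44.5, 38.4 and 48.7 CPM in ΔEGFR mineral oil, and 21.1, 32.2, 31.1 and 36.4 CPM in ΔEGFR CCl4. The ΔEGFR groups did not overlap, and in WT the lowest mineral oil library lay just below 2 CCl4 libraries. Ifih1 fell by 0.47 on the log2 scale on average (SE 0.12, adjusted p = 0.014). That call was lost only without WT CCl4 replicate 2 among the single libraries left out (adjusted p = 0.066). Without scaling factors its value was -0.01. Dhx58 lay between 10.8 and 13.2 CPM in all 8 mineral oil libraries, at 13.9 to 20.7 CPM in WT CCl4 and at 7.88 to 14.7 CPM in ΔEGFR CCl4. It was not called in either genotype or on average, where its log2 fold change was 0.31 (SE 0.13, adjusted p = 0.10). On average it was called at 0.39 without ΔEGFR CCl4 replicate 1 (adjusted p = 0.012), at 0.45 without WT CCl4 replicate 2 (adjusted p = 0.033) and at 0.76 without scaling factors (adjusted p = 0.0026). In WT it was called at 0.48 without ΔEGFR CCl4 replicate 1 (adjusted p = 0.039) and at 0.94 without scaling factors (adjusted p = 0.016). Limma on log2(TPM + 1) called Dhx58 at 0.70 on average (adjusted p = 0.0049) and at 0.80 in WT (adjusted p = 0.034).

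Stat2 and Irf9 are the parts of ISGF3 that give it its DNA specificity and activation, and Irf7 drives transcription of the IFN-α genes. Stat2 stood at 81.1, 70.4, 73.5 and 59.9 CPM in WT mineral oil, 53.6, 52.8 and 54.2 CPM in WT CCl4, 65.1, 49.4, 77.1 and 68.6 CPM in ΔEGFR mineral oil, and 57.2, 50.8, 49.6 and 63.1 CPM in ΔEGFR CCl4. In WT the groups did not overlap, and in ΔEGFR they did. Stat2 fell by 0.32 on average (log2, SE 0.10, adjusted p = 0.033), but its value was 0.12 without scaling factors and 0.20 on log2(TPM + 1). The call was also lost without any 1 of the 3 WT CCl4 libraries, ΔEGFR mineral oil replicates 3 and 4, or ΔEGFR CCl4 replicates 2, 3 and 4, with adjusted p up to 0.18. Irf9 ran from 22.5 to 50.6 CPM and Irf7 from 29.1 to 68.7 CPM, the highest of both in WT mineral oil replicate 1, and neither was called. Irf9 was called lower on average without WT mineral oil replicate 4 (-0.37, adjusted p = 0.042), as was Ifi35 (-0.32, adjusted p = 0.036).

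Parp9 is an ADP-ribosyltransferase that acts with the ubiquitin ligase Dtx3l, and Parp14 is a larger enzyme of the same family. Parp9 was the steadiest of the genes in mineral oil, where its highest library was 1.13 times its lowest. It stood at 41.1, 45.8, 43.9 and 40.9 CPM in WT mineral oil, 38.6, 34 and 38 CPM in WT CCl4, 41.5, 44.1, 45.8 and 46.3 CPM in ΔEGFR mineral oil, and 28.6, 36.0, 31.2 and 32.0 CPM in ΔEGFR CCl4. All 7 CCl4 libraries lay below all 8 mineral oil libraries. No other gene of the list separated so; 6.46% of all tested genes did, 2.83% lower as here. Parp9 fell by 0.48 in ΔEGFR (log2, SE 0.09, adjusted p = 0.023) and by 0.35 on average (SE 0.07, adjusted p = 0.0032), and had -0.22 in WT. The averaged call held without any single library, yet the value turned to 0.10 without scaling factors and to 0.14 on log2(TPM + 1), neither of them called. Dtx3l fell by 0.38 on average (SE 0.08, adjusted p = 0.0055), with 0.066 without scaling factors. The ΔEGFR call of Parp9 was lost without any 1 of ΔEGFR mineral oil replicates 2 and 4 or ΔEGFR CCl4 replicates 1, 3 and 4 (adjusted p up to 0.080). Parp14 ran from 29.2 to 90.1 CPM and was not called.

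Igtp and Irgm1 belong to the immunity-related GTPases (IRG), which interferon-γ induces and which act on the membranes around intracellular pathogens. Gbp2 and Gbp3 are guanylate-binding proteins, which attack the same membranes. Igtp stood at 111, 46.6, 68.4 and 23.8 CPM in WT mineral oil, 26.8, 20.6 and 26.9 CPM in WT CCl4, 25.3, 41.0, 41.5 and 44.3 CPM in ΔEGFR mineral oil, and 25.2, 20.5, 19.6 and 18.6 CPM in ΔEGFR CCl4. In WT only mineral oil replicate 4 lay within the CCl4 range, and in ΔEGFR mineral oil replicate 1 lay barely above the highest CCl4 library. Igtp fell by 1.33 in WT (log2, SE 0.39, adjusted p = 0.040) and by 1.10 on average (SE 0.26, adjusted p = 0.0084), and had -0.86 in ΔEGFR. The averaged call held without any single library, and without WT mineral oil replicate 1 the fall was 0.88 (adjusted p = 0.0054). The WT call was lost without any 1 of WT mineral oil replicates 2 and 3, the 3 WT CCl4 libraries, ΔEGFR mineral oil replicate 2 or ΔEGFR CCl4 replicates 2, 3 and 4, with adjusted p up to 0.17.

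Irgm1, which regulates the other IRG proteins, stood at 144, 50.9, 55.3 and 43.7 CPM in WT mineral oil, 46.5, 30.1 and 36.1 CPM in WT CCl4, 35.7, 40.1, 59.1 and 42.1 CPM in ΔEGFR mineral oil, and 32.1, 31.0, 28.5 and 30.5 CPM in ΔEGFR CCl4. The ΔEGFR groups did not overlap, and 1 WT CCl4 library lay above the lowest WT mineral oil library. It fell by 0.75 on average (log2, SE 0.24, adjusted p = 0.033), and by 0.47 without WT mineral oil replicate 1 (adjusted p = 0.0099). That call was lost without any 1 of the 3 WT CCl4 libraries, ΔEGFR mineral oil replicates 2 and 3 or ΔEGFR CCl4 replicates 2, 3 and 4, with adjusted p up to 0.13.

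Other IRG genes were measured as well. Iigp1 fell by 1.15 on average (log2, SE 0.18, adjusted p = 0.00095), from 293 ± 30.6 CPM (SD, n = 4) to 141 ± 55.1 CPM (n = 3) in WT and from 244 ± 57.2 CPM to 102 ± 21.3 CPM (n = 4 each) in ΔEGFR. It was called in each genotype, at -1.05 in WT (adjusted p = 0.023) and -1.25 in ΔEGFR (adjusted p = 0.022). Ifi47 fell by 0.82 (adjusted p = 0.0033), Irgm2 by 1.14 (adjusted p = 0.0074) and Tgtp1 by 1.31 (adjusted p = 0.0086), the last 2 named after their values were seen. The 6 IRG genes given here thus had averaged values from -1.31 to -0.75. They were put together after their values were seen, so their count says nothing of the family, and 15.1% of all tested genes were called lower. All 6 stayed below 0 without scaling factors (-0.92 to -0.35) and on log2(TPM + 1) (-0.66 to -0.14), where the medians of all tested genes were 0.43 and 0.41, and of the 6 only Iigp1 was then called. Reads of near-identical IRG copies, such as those of Tgtp1, may have been split in the authors' counting.

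Gbp2 and Gbp3 did not share that direction. Gbp2 ran from 1.10 to 25.5 CPM in mineral oil and from 6.85 to 14.6 CPM with CCl4, and Gbp3 from 2.93 to 19.7 and from 6.23 to 12.5 CPM. Neither was called (averaged log2 fold changes 0.61, SE 0.56, adjusted p = 0.45, and 0.54, SE 0.36, adjusted p = 0.29). Without WT mineral oil replicate 1 both were called higher, at 1.44 (adjusted p = 0.0095) and 1.04 (adjusted p = 0.0016). With all libraries, limma on log2(TPM + 1) also called both higher, at 1.21 (adjusted p = 0.033) and 0.87 (adjusted p = 0.027).

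**Figure D3:**
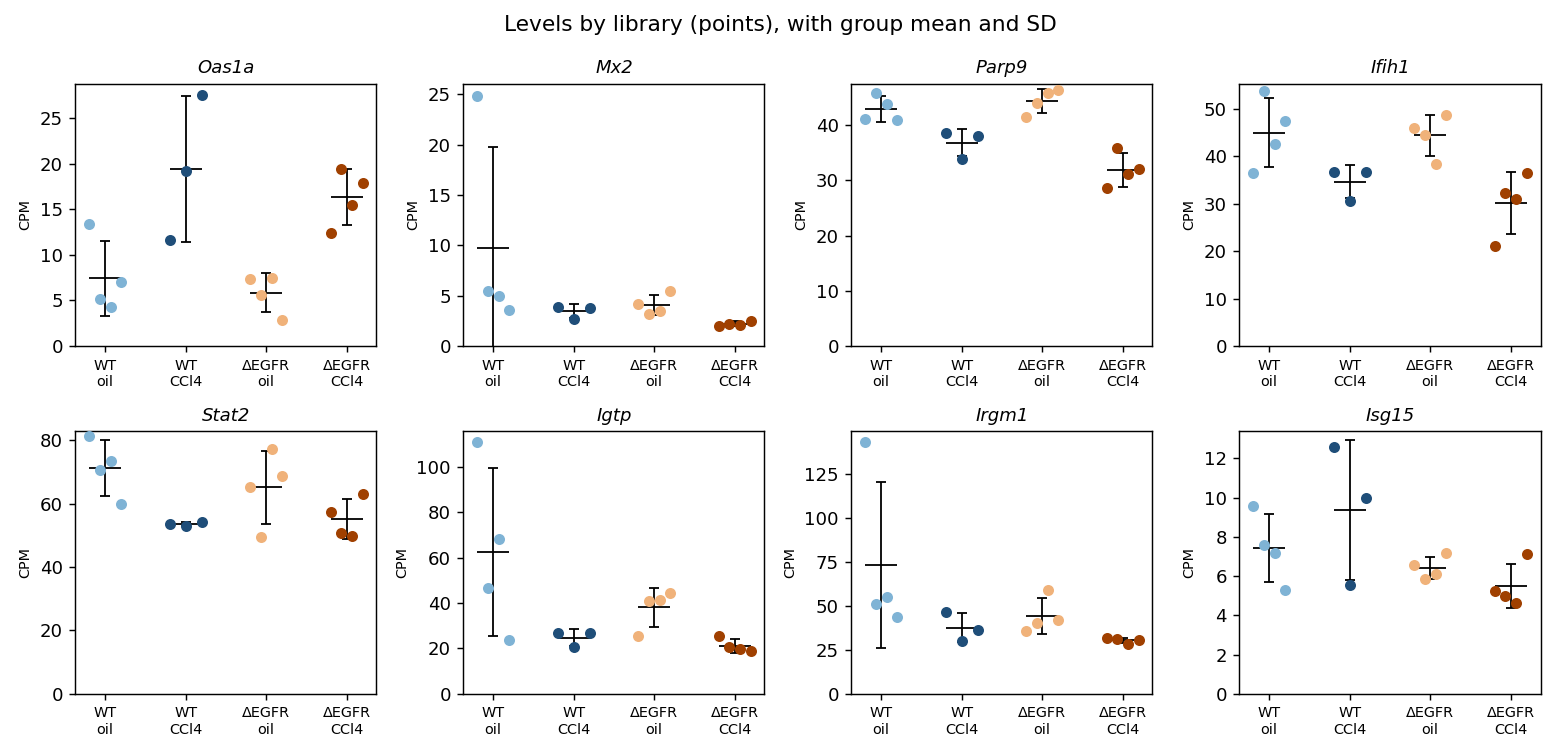
Each panel gives the CPM of one gene on a linear axis from 0, with 1 point per library and the group mean and SD in black, for the 7 genes called with CCl4 on average and for Isg15. Only Parp9 has all 7 CCl4 libraries below all 8 mineral oil libraries. WT mineral oil replicate 1 is the highest library for Mx2, Stat2, Igtp and Irgm1.

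Isg15 is the ubiquitin-like modifier, Herc6 the ligase that attaches it in mice, Usp18 the protease that removes it and blocks the receptor, and Trim25 a ligase that activates RIG-I. None was called. Isg15 stood at 9.55, 7.60, 7.18 and 5.32 CPM in WT mineral oil, 12.6, 5.56 and 9.99 CPM in WT CCl4, 6.55, 5.86, 6.09 and 7.16 CPM in ΔEGFR mineral oil, and 5.22, 4.98, 4.61 and 7.12 CPM in ΔEGFR CCl4. Its 4 groups overlapped, and its averaged log2 fold change with CCl4 was 0.06 (95% interval -0.34 to 0.45). Limma on log2(TPM + 1) called Isg15 higher on average, at 0.53 (adjusted p = 0.032). The median of all tested genes was 0.41 in that fit. Herc6 stood at 20.6, 18, 14.2 and 13.8 CPM in WT mineral oil, 9.20, 10.4 and 12.7 CPM in WT CCl4, 9.22, 10.9, 8.79 and 13.5 CPM in ΔEGFR mineral oil, and 6.13, 9.62, 10.1 and 12.1 CPM in ΔEGFR CCl4. WT mineral oil thus lay above the other 3 groups. The averaged CCl4 value of Herc6 was -0.39 (log2, SE 0.16, adjusted p = 0.085), and 0.055 without scaling factors. Usp18 ran from 6.05 to 15.4 CPM, and Trim25 from 68.7 to 122 CPM. Usp18 was called higher on average without scaling factors, at 0.87 (adjusted p = 0.014). With limma on log2(TPM + 1) it was called at 0.81 (adjusted p = 0.010).

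The 12 IFIT and effector genes had no call. Bst2 had the lowest p among them and stood at 67.8, 120, 106 and 127 CPM in WT mineral oil, 109, 92.4 and 76.5 CPM in WT CCl4, 129, 181, 132 and 116 CPM in ΔEGFR mineral oil, and 106, 85.0, 89.4 and 108 CPM in ΔEGFR CCl4. The ΔEGFR groups did not overlap, with a log2 fold change of -0.52 (SE 0.20, adjusted p = 0.14). On average it was -0.35 (SE 0.15, adjusted p = 0.093), and 0.087 without scaling factors. Unlike most of the 34 genes, Bst2 was lowest in WT mineral oil replicate 1. Without that library the averaged value was called at -0.43 (adjusted p = 0.012), and the ΔEGFR value at -0.52 (adjusted p = 0.049).

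The IFIT proteins bind viral RNA caps and complexes of translation initiation. Ifit1 ran from 1.61 to 9.15 CPM, Ifit2 from 0.858 to 10.6 CPM and Ifit3 from 3.28 to 11.9 CPM, and the averaged log2 fold change of Ifit2 was 1.11 (SE 0.47, adjusted p = 0.094). Rsad2 (viperin) and its neighbour Cmpk2, a nucleotide kinase, ran from 3.84 to 22.1 CPM and from 3.16 to 11.1 CPM. Ifi44 ran from 1.14 to 4.32 CPM, Xaf1, a proapoptotic factor, from 3.10 to 10.4 CPM, Rtp4 from 6.82 to 25.1 CPM, and Zbp1, the sensor of Z-form nucleic acid, from 4.71 to 18.4 CPM. Each of these 4 was highest in WT mineral oil replicate 1. Ifi35 (18.4 to 29.9 CPM) and Ifi27 (48.1 to 80.6 CPM) stayed within a narrow range in CPM. Without scaling factors Ifi27 was called higher on average, at 0.53 (adjusted p = 0.0012). On log2(TPM + 1) it was called at 0.59 (adjusted p = 0.0017). The medians of all tested genes were 0.43 and 0.41 in those fits. Without WT mineral oil replicate 1, Ifit2, Rtp4 and Xaf1 were called higher on average, at 1.60 (adjusted p = 0.0054), 0.49 (adjusted p = 0.020) and 0.43 (adjusted p = 0.036). With all libraries, limma on log2(TPM + 1) called the same genes, at 1.12 (adjusted p = 0.0075), 0.78 (adjusted p = 0.025) and 0.62 (adjusted p = 0.032).

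For several genes with a wide spread, the libraries with the lowest macrophage sums also held the lowest values. The library with the lowest macrophage sum, ΔEGFR mineral oil replicate 4 at 44.5 CPM, held the lowest Oas1a (2.9 CPM), Oas2 (0.404 CPM) and Oas3 (0.196 CPM). The next, WT mineral oil replicate 3 at 107 CPM, held 0.658 CPM of both Oas2 and Oas3, and the lowest Oasl2 (1.28 CPM), Gbp2 (1.10 CPM), Ifit2 (0.858 CPM) and Mx1 (0.359 CPM). At a macrophage sum of 1274 CPM, ΔEGFR mineral oil replicate 3 had 6.86 CPM of Oas2 and 8.19 CPM of Oas3. At 5346 CPM, ΔEGFR CCl4 replicate 2 had 16.5 and 23.1 CPM. WT mineral oil replicate 1 went against that order: at a macrophage sum of 2248 CPM it held the highest Oas2, Oas3, Oasl2, Gbp2 and Ifit2 of all 15 libraries, above each CCl4 library with a larger sum. The 2 libraries at the low end had 43.9 and 46.3 CPM of Parp9, 73.5 and 68.6 CPM of Stat2 and 86.5 and 90.7 CPM of Trim25. The other 6 mineral oil libraries ran from 40.9 to 45.8, from 49.4 to 81.1 and from 89.9 to 122 CPM. Oas1a stood at 2.9 and 4.31 CPM in the 2 libraries with the lowest macrophage sums. In 5 of the other mineral oil libraries it lay above these values, at up to 7.45 CPM. It stood at 13.4 CPM in WT mineral oil replicate 1 and at 11.6 to 27.6 CPM in the 7 CCl4 libraries. All libraries with CCl4 had more macrophage marker RNA than 7 of the 8 mineral oil libraries. Treatment and macrophage RNA therefore cannot be told apart for any of the 34 genes, whether they rose or fell. The part of macrophage RNA in the rise of Oas1a, or in the change of any other gene, was not tested. Igtp stood at 68.4 and 44.3 CPM in the 2 libraries with the lowest macrophage sums, at 23.8 to 46.6 CPM in 5 of the other mineral oil libraries, at 111 CPM in WT mineral oil replicate 1 and at 18.6 to 26.9 CPM in the 7 CCl4 libraries. Of the 34 genes, 26 also had their highest mineral oil value in WT mineral oil replicate 1. Among the mineral oil libraries it held the most marker RNA of neutrophils, T and NK cells, B cells and plasmacytoid dendritic cells. The same held for macrophages, monocytes and dendritic cells, endothelial cells and cholangiocytes. The part of any of these cells was not tested.

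**Figure D4:**
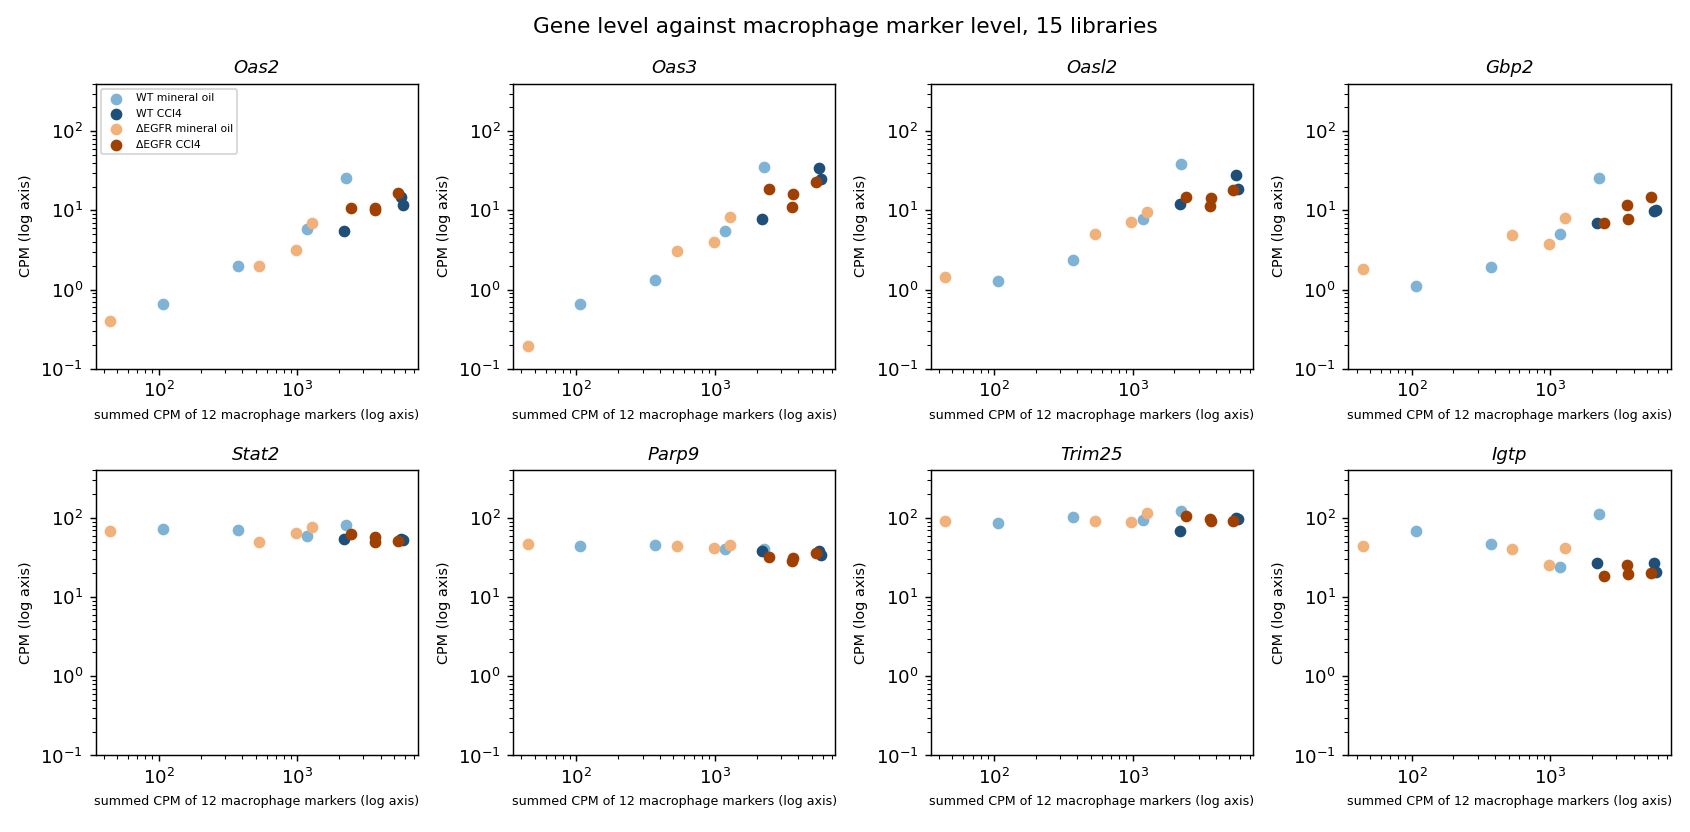
Each panel plots the CPM of one gene against the summed CPM of 12 macrophage markers, both on log axes, with 1 point for each of the 15 libraries coloured by group. Oas2, Oas3, Oasl2 and Gbp2 are lowest where the marker sum is lowest, 44.5 to 107 CPM, and highest in WT mineral oil replicate 1 at 2248 CPM, while Parp9 is lower in all 7 CCl4 libraries than in any mineral oil library.

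Upstream of these genes, mRNA of the interferons themselves was hardly present in these libraries. Interferon protein was not measured. Of 9 ligand genes, 8 did not pass the filter on low counts. Ifnb1 was at 0 in 14 of the 15 libraries and at 0.005 CPM in 1 library of WT CCl4. Ifng reached 2.68 CPM in 1 library of WT mineral oil and at most 0.168 CPM in any other group. Among 6 receptor genes, 1 rose and 1 fell with CCl4 on average. The one that rose was Il10rb, shared by the interferon-λ and IL-10 receptors (log2 fold change 1.94, SE 0.47, adjusted p = 0.0089). Ifnar2 fell by 0.31 (SE 0.10, adjusted p = 0.030), with 0.15 without scaling factors; its call was lost without any 1 of WT mineral oil replicates 2 and 4, the 3 WT CCl4 libraries, ΔEGFR mineral oil replicate 2 or ΔEGFR CCl4 replicates 3 and 4 (adjusted p up to 0.15). Ifnar1 (0.04, SE 0.09) was not called. None of the kinases Jak1, Jak2 and Tyk2 was called.

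Of 13 nucleic acid sensors and adaptors, 2 were higher and 1 lower with CCl4. Tlr7 rose by 2.40 (log2, SE 0.72, adjusted p = 0.026) and Tlr9 by 2.39 (SE 0.83, adjusted p = 0.049); both are endosomal receptors of leukocytes and macrophages. The Tlr7 call did not hold when WT CCl4 replicate 2 or 3 or ΔEGFR mineral oil replicate 2 was left out, where the adjusted p reached 0.064. The Tlr9 call was lost in 12 of 15 such fits, all but those without WT mineral oil replicates 1 and 3 and ΔEGFR mineral oil replicate 3, with adjusted p up to 0.11; without WT mineral oil replicate 1 it was 3.02. Mavs, the mitochondrial adaptor of Ifih1, fell by 0.73 (SE 0.14, adjusted p = 0.0032), and its value was -0.26 without scaling factors, where it was not called.

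Among 5 further interferon regulatory factors 2 rose and 2 fell. Irf5, a factor of macrophages and other leukocytes, rose by 0.97 (log2, SE 0.16, adjusted p = 0.0014), and Irf8, a factor of myeloid cells, by 1.84 (SE 0.63, adjusted p = 0.046). The Irf8 call was lost in 12 of 15 fits that left out a library, all but those without WT mineral oil replicate 1, WT CCl4 replicate 1 and ΔEGFR mineral oil replicate 3 (adjusted p up to 0.11), and without WT mineral oil replicate 1 its value was 2.7. Irf2, a repressor of Irf1 targets, fell by 0.80 (SE 0.16, adjusted p = 0.0035), with -0.33 and no call without scaling factors. Irf3, which switches on Ifnb1, fell by 0.35 (SE 0.09, adjusted p = 0.013); its value was 0.11 without scaling factors, and leaving out WT CCl4 replicate 2 or 3 raised the adjusted p to as much as 0.074. Irf1 reached 244 CPM in 1 library of WT mineral oil, against 29.6 to 36.3 CPM in ΔEGFR mineral oil, 14.8 to 22.4 CPM in WT CCl4 and 17.7 to 28.4 CPM in ΔEGFR CCl4, and was not called (-1.24, SE 0.51, adjusted p = 0.085). Of 6 genes that restrain the pathway, Socs3 fell by 2.09 (SE 0.57, adjusted p = 0.017), by 1.42 without WT mineral oil replicate 1, and was not called once WT CCl4 replicate 2 or 3 was dropped, with an adjusted p of up to 0.062. Of 50 other interferon-stimulated genes 3 rose and 8 fell, and the highest-ranked that rose was Lgals3bp, a secreted glycoprotein (0.94, SE 0.15, adjusted p = 0.0011). Over all 93 such genes 85 were tested, and 8 were higher and 13 lower, read against the same 27.1%.

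The comparison of ΔEGFR with WT asks whether the transgene shifts these genes at rest or after CCl4. No gene of the list was called with edgeR in mineral oil, in CCl4, averaged over treatments or in the interaction, and the background was 0% of all tested genes in each of these comparisons. DESeq2 and limma also called 0 of the 34 genes in each. At an unadjusted p under 0.05 there were 3 of 34 in mineral oil (background 6.66%), 2 in CCl4 (2.29%), 6 averaged over treatments (4.89%) and 0 in the interaction (3.16%). All of these were lower in ΔEGFR, where the background of lower genes was 4.12% in mineral oil, 0.962% in CCl4 and 2.29% on average. They were Mx2, Herc6 and Irgm1 in mineral oil, Isg15 and Dhx58 in CCl4, and those 5 with Rsad2 on average.

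In mineral oil 29 of 34 genes had a negative log2 fold change, against 51% of all tested genes, and the median of the list was -0.47 against -0.01. Without WT mineral oil replicate 1 the median of the list was 0.01, against 0.05 for all tested genes. In CCl4, where that library has no part, 25 of 34 were negative, against 50.9%, and the median was -0.21 against -0.01. Without WT CCl4 replicate 3 that median was -0.03, against 0.03 for all tested genes. Herc6 was the 1 gene whose groups did not overlap in mineral oil (background 2.73%, and 1.29% for lower in ΔEGFR): 13.8 to 20.6 CPM in WT and 8.79 to 13.5 CPM in ΔEGFR. Its log2 fold change was -0.65 (95% interval -1.12 to -0.18, adjusted p = 0.71). In CCl4 the groups of Mx2 and Irf9 did not overlap, 2 of 34, both lower in ΔEGFR, against a background of 5.06% (2.38% lower). Averaged over treatments, which uses the libraries of both, 30 of 34 genes were negative, against 51.6%, and the median was -0.35 against -0.01. That median was -0.09, against 0.04, without WT mineral oil replicate 1.

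The intervals give the sizes of change that are compatible with these libraries. In mineral oil the 95% interval lay within 2-fold in both directions for 13 of 34 genes, in CCl4 for 14, and averaged over treatments for 22. Steady genes were bounded closely: in mineral oil Parp9 had 0.05 (-0.15 to 0.25) and Ifi35 0.03 (-0.26 to 0.33). For Oas3 the interval ran from -3.82 to 0.90, so a fall of several fold lies within it. The averaged values were -0.49 for Isg15 (-0.88 to -0.10), -0.42 for Herc6 (-0.76 to -0.07), -0.32 for Dhx58 (-0.61 to -0.04), -0.96 for Mx2 (-1.74 to -0.18), -0.79 for Rsad2 (-1.56 to -0.01) and -0.52 for Irgm1 (-1.02 to -0.01), each with an adjusted p of 0.83. The values of Mx2, Rsad2 and Irgm1 were -0.43, -0.44 and -0.24 without WT mineral oil replicate 1. The change with CCl4 was not shown to differ between the genotypes for any gene: the interaction ran from -0.94 to 1.61 over the list, and the lowest adjusted p was 0.99996.

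**Figure D5:**
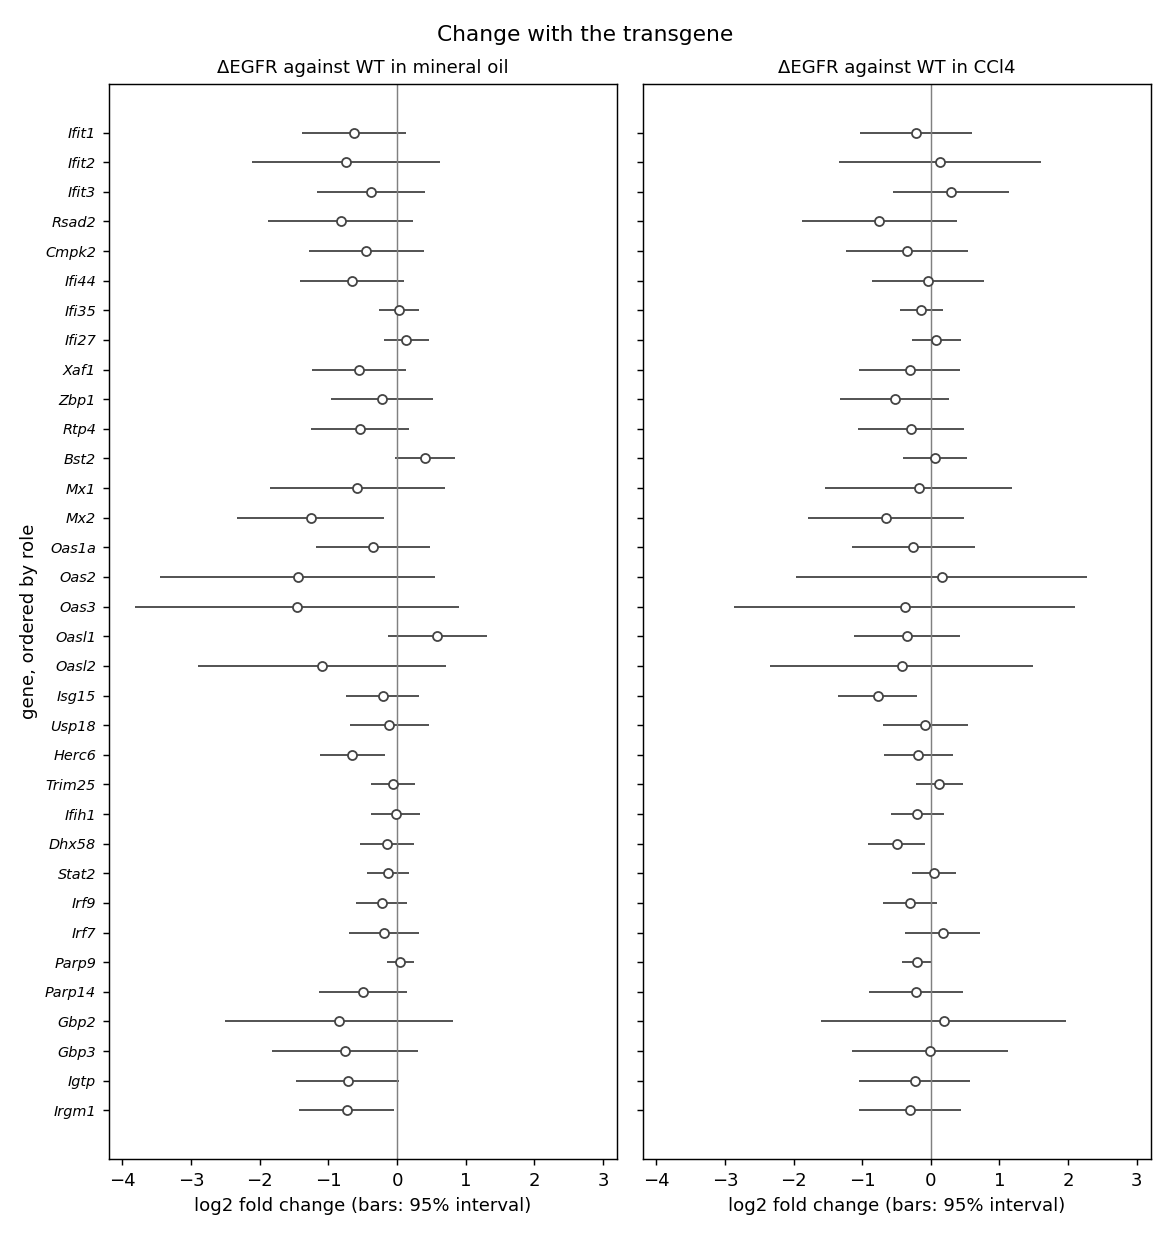
Points give the log2 fold change of ΔEGFR against WT for each of the 34 genes, in mineral oil (left) and in CCl4 (right), with 95% intervals as bars. No point passed an adjusted p of 0.05, 29 of 34 points lie below 0 in mineral oil and 25 in CCl4, and the intervals are widest for Oas2, Oas3, Oasl2 and Gbp2.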

How the data were processed

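Polyadenylated RNA of primary mouse hepatocytes was sequenced in 15 libraries (KAPA stranded mRNA kit, per the labels' protocols). Per the submitters' processing notes, the tools were STAR 2.7.8a and RSEM 1.3.0 with build GRCm39; whether strand was used in counting is not given in the sources used here. The deposited values are RSEM expected counts per gene, not normalized, and TPM computed by the authors. Groups came from the labels' genotype and treatment. Expected counts were rounded to whole numbers. The quasi-likelihood test of edgeR 4.0.16 (R 4.3.3) used filterByExpr (minimum count 10, total 15), TMM factors, robust quasi-likelihood fits of 4 group means over 15 libraries, and Benjamini-Hochberg adjustment over 17975 genes. CPM uses the scaled library sizes. Totals ran from 51732147 to 155388787 counts, and the common biological coefficient of variation was 50.9%, which limits precision more than depth does. Comparisons were CCl4 against mineral oil and ΔEGFR against WT, each within the other factor and averaged, and the interaction. Comparisons within and averaged over a factor share libraries. Gene names were matched by Ensembl identifier for 52029 of 56953 genes (91.4%). No 2 libraries of a group agreed within counting noise. Alternatives were DESeq2 1.42.0, limma 3.58.1 on log2(TPM + 1) and log2(TPM + 0.1), other scaling and filters, depth class (above or below 80000000 counts) as a covariate, only the compared groups, and each library left out. The genes and lists were chosen with earlier results of these data known. Every gene of the list was accounted for by role. Full statistics went to those called in any comparison and, in a role with none, to the one with the lowest p; pathway genes were named when called, at most 4 per list, together with Ifnb1, Ifng, Ifnar1, Ifnar2, Irf1 and Irf3; 1 further gene of that rule is not reported here. The code was tested on simulated data.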

Additional observations from a re-analysis of the deposited data

Results flagged for a closer look

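In 102 groups of 4 libraries (log2 CPM of 34 genes in 3 groups), 1 library lay farther from the rest than Dixon's ratio of 0.829 allows in 5, where chance gives about 1 in 20. Oas2 was highest in ΔEGFR CCl4 replicate 2, at 16.5 CPM against 10.1 to 10.8 CPM. Trim25 was highest in ΔEGFR mineral oil replicate 3, at 117 CPM against 89.9 to 91.6 CPM. Dhx58 was highest in ΔEGFR mineral oil replicate 1, at 12.6 CPM against 10.8 to 11.1 CPM, and lowest in ΔEGFR CCl4 replicate 1, at 7.88 CPM against 13.5 to 14.7 CPM. Igtp was lowest in ΔEGFR mineral oil replicate 1, at 25.3 CPM against 41.0 to 44.3 CPM. None of the 30 groups of marker sums was set apart in this way. The scale mattered: on CPM without the logarithm, tried after seeing the data, 10 groups had such a library, and in 6 of them it was WT mineral oil replicate 1 (Xaf1, Mx2, Oas3, Gbp2, Gbp3 and Irgm1), which the log2 scale set apart for none.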

How the results depend on the processing

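In the averaged comparison of CCl4 with mineral oil, the 7 called genes became 3 without a filter on low counts (12.6% of all tested genes called in that fit), 14 with limma on log2(TPM + 1) (46.1%) and 15 on log2(TPM + 0.1) (46.6%), all of them higher in both of the last, and 4 to 17 with 1 library left out (17.8% to 43.9%). The 14 on log2(TPM + 1) were Oas1a, Oas2, Oas3, Oasl2, Mx1, Dhx58, Gbp2, Gbp3, Isg15, Usp18, Ifit2, Ifi27, Rtp4 and Xaf1. On log2(TPM + 0.1), Rsad2 was called besides these. Without scaling factors 5 were called (36.9%), all higher, against 1 higher and 6 lower with them. These 5 were Oas1a, Dhx58, Ifi27, Ifit2 and Usp18. The 2 of WT became 3 with DESeq2 (18.3%), 3 without scaling factors (15.8%) and 3 in both limma fits (21.6% and 20.5%). They became 1 with RLE factors (12.7%), 0 without the filter (4.69%) and 0 with only the compared groups (3.33%). Chosen after seeing the data, only libraries below 80000000 counts gave 0, where 0 genes of all were called. The range with 1 library left out was 0 to 7 (3.12% to 28.7% of all tested genes). The 1 of ΔEGFR became 3 with DESeq2 (12.1%), 2 without scaling factors (6.56%) and 0 without the filter (1.51%). It became 2 with at least 1 CPM in 3 libraries (4.84%) and 4 with only the compared groups (7.57%). With limma at the pseudocounts 1 and 0.1 there were 4 and 3 (15.3% and 13.6%), and 2 with depth class as a covariate (9.14%). Also chosen after seeing the data, only libraries above 80000000 gave 0 (0.702%). The range with 1 library left out was 0 to 6 (0.415% to 12.1%). The causes were not tested. Counts for ΔEGFR against WT and the interaction were 0 in every alternative run. With depth class as a covariate the median of the list moved to -0.89 in mineral oil, -0.44 in CCl4 and -0.66 on average. The medians of all tested genes were then 0.05, -0.02 and 0.02. All ΔEGFR mineral oil libraries were above 80000000 counts, and of WT mineral oil only replicate 1 was. Depth class thus largely goes with genotype in mineral oil, so the mineral oil median cannot separate them.

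Some small falls changed sign without scaling factors or in the limma fits on TPM. The median of all tested genes moved by 0.42 to 0.54 in these fits, and the cause of the changes of sign was not tested. Values without scaling factors, on log2(TPM + 1) and on log2(TPM + 0.1) were, averaged over genotypes, 0.055, 0.10 and 0.13 for Herc6, 0.087, 0.20 and 0.20 for Bst2, 0.12, 0.20 and 0.21 for Stat2, 0.10, 0.14 and 0.15 for Parp9, 0.15, 0.062 and 0.063 for Ifnar2, 0.11, 0.18 and 0.18 for Irf3, and 0.066, 0.13 and 0.14 for Dtx3l. In WT they were 0.076, 0.0055 and 0.0054 for Ifih1, 0.019, 0.056 and 0.058 for Stat2, and 0.22, 0.22 and 0.23 for Parp9. In ΔEGFR they were 0.22, 0.34 and 0.36 for Stat2. In ΔEGFR the TPM fits alone turned Bst2 to 0.044 and 0.044, Parp9 to 0.056 and 0.060, and Irgm1 to 0.029 and 0.033. With 1 library left out, the averaged value ran from -0.0019 to 0.12 for Ifnar1. No paired analysis was possible because the labels give no replicate numbers; those used here only name the libraries.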
